A study of Mus musculus with 204 samples.

Results

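Chat, Slc18a3, Slc5a7 and Ache, the 4 genes that make, package, recycle and break down acetylcholine, were followed through single cells of the mouse distal colon. All 4 were rows of the deposited table of 49492 genes and were chosen by name. Each cell was a tdTomato-positive cell of a VGLUT2-tdTomato mouse, picked by hand after the muscle layers with the myenteric plexus had been dissociated and kept in culture overnight. VGLUT2 is the vesicular glutamate transporter encoded by Slc17a6, and how the reporter was built is not given in the sources used here. The labels name no treatment, age, animal or culture, so the groups compared are classes of cells defined by transcripts: neuronal and other cells, neuronal cells with and without Slc17a6, and neuronal cells with and without Nos1, which encodes the nitric oxide synthase of neurons. The cells lay on 3 plates of 66, 66 and 72 cells, and each plate counts as 1 sample, so no test was made and no p-value is given. All cells and all 4 genes enter the results.

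Acetylcholine is the main excitatory transmitter of the enteric nervous system. Choline acetyltransferase, the product of Chat, joins choline to acetyl-CoA in the cytoplasm. The vesicular acetylcholine transporter, encoded by Slc18a3, loads the product into synaptic vesicles in exchange for protons. Acetylcholinesterase, encoded by Ache, splits released acetylcholine outside the cell, and the high-affinity choline transporter, encoded by Slc5a7, returns the choline to the nerve ending. Ache is also made by neurons that receive cholinergic input, so its transcript alone does not define a cholinergic neuron. In the gut, many inhibitory motor neurons make nitric oxide through Nos1.

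Chat and Slc18a3 form a shared locus. In the GENCODE M21 annotation of mm10, Chat (ENSMUSG00000021919.8) spans chr14:32408203-32465989 on the minus strand. Slc18a3 (ENSMUSG00000100241.1) is a gene of 1 exon at chr14:32462438-32464850 on the same strand. It lies inside a Chat intron, starts 1139 bases downstream of the Chat start and shares 0 exonic bases with Chat. Reads from unspliced Chat RNA over those bases could not be told from Slc18a3 reads, and their part in the Slc18a3 values was not tested. Slc5a7 (ENSMUSG00000023945.7) lies at chr17:54273590-54299034 on the minus strand, and Ache (ENSMUSG00000023328.14) at chr5:137287519-137294466 on the plus strand. A non-coding gene on the opposite strand, Gm42456, shares 98 bases (2.12%) with Ache exons. The strand setting of the counting is not given in the sources used here, so reads from those bases cannot be assigned to either gene.

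The promoters are shown because the genes were detected together in cells while only Chat and Slc18a3 share a locus. Each window runs from 250 bases before to 50 bases after the gene's start, on the gene's own strand, from RefSeq on GRCm38.p6. The windows are chr14:32465860-32466159 (minus) for Chat, chr14:32464801-32465100 (minus) for Slc18a3, chr17:54298985-54299284 (minus) for Slc5a7 and chr5:137288004-137288303 (plus) for Ache. The RefSeq start is the GENCODE start for Slc18a3 and Slc5a7, but lies 80 bases downstream of it for Chat and 735 bases downstream for Ache, so the Ache window lies wholly inside the gene as GENCODE gives it. Capitals mark the GC box GGGCGG and the core of the cyclic AMP response element, TGACG, each on either strand.
Chat: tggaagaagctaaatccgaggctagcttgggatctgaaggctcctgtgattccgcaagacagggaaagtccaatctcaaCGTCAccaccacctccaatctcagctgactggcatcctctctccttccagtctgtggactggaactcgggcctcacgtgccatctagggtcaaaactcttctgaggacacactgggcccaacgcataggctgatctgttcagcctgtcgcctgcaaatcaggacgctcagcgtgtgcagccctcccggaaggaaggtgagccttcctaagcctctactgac
Slc18a3: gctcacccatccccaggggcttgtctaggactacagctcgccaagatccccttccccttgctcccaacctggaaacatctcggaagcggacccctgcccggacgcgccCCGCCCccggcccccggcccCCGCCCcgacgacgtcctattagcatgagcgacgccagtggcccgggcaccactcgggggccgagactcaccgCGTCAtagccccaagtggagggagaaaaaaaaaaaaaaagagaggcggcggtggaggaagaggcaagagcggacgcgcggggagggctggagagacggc
Slc5a7: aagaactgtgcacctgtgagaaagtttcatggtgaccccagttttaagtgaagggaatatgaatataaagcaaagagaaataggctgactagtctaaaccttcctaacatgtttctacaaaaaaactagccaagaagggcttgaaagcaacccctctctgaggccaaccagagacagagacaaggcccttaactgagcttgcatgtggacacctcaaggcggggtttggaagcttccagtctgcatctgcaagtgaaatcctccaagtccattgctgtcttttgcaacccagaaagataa
Ache: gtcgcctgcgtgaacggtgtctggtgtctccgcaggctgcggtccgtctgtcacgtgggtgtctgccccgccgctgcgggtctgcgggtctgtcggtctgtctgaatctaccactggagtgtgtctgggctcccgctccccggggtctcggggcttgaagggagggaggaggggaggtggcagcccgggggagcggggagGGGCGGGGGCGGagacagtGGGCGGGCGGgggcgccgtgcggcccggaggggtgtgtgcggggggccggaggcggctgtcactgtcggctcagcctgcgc
The 4 windows differed in base composition. G and C made up 74% of the Ache window, 67% of the Slc18a3 window, 55.7% of the Chat window and 44.7% of the Slc5a7 window, against a median of 52.7% over 32851 promoters. The letters of 10 motifs were searched on both strands. The GC box was present 4 times in Ache and 2 times in Slc18a3, and 35.7% of all promoters hold it. TGACG was present 1 time each in Chat and Slc18a3, and 20.8% of all promoters hold it. The E-box CANNTG was present in all 4 windows and in 72.3% of all promoters. TAAT was found in Slc18a3 only (58.0% of all promoters), CCAAT in Chat only (37.4%) and TATAAA in Slc5a7 only (13.6%). TTCAGCACC (0.371% of all promoters) and GGACAGCG (1.26%), the left and right parts of the site bound by the repressor REST, were in none of the 4, nor were the full cyclic AMP response element TGACGTCA (1.79%) and a paired homeodomain palindrome, TAAT and ATTA with 3 bases between them (0.487%). No motif that was in fewer than 72.3% of all promoters was shared by all 4 windows.

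Values are reads per kilobase and 1000000 reads (RPKM) for levels, and reads per 1000000 (CPM) for detection, set at 10 CPM. A cell was called neuronal where at least 50% of 13 pan-neuronal genes were detected, which held for 54, 45 and 55 cells of plates 1, 2 and 3. The label of neuron therefore went against the markers in 50 cells, all of which carried a list of non-neuronal markers, most often smooth muscle (34 cells). A non-neuronal list was also carried by 65 neuronal cells, or 42.2% (41 with smooth muscle). Cells had between 453052 and 14310732 reads. In 6 pairs of cells, 3 on plate 1 and 3 on plate 3, the profiles correlated at 0.954 to 0.990, while the next highest pair reached 0.882. The members of a pair still differed by more than sampling noise, with a chi-square per degree of freedom of 5.51 to 24.9. Whether they are separate cells was not tested, and counting each pair once moved no share below outside its interval. The intervals are 95% Clopper-Pearson intervals, which are exact for counting error and hold nothing else.

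All 4 genes were found in most neuronal cells and in few others. Ache was detected in 87% of neuronal cells (interval 80.7 to 91.9%) and in 3 of 50 other cells (6%). Slc18a3 was detected in 76.6% of neuronal cells (69.1 to 83.1%) and in 2 other cells (4%). Slc5a7 was detected in 76% of neuronal cells (68.4 to 82.5%) and in 0 of 50 others. The upper limit for that 0 is 6% when taken as 3 cells of the class, and 7.11% by the exact interval. Chat was detected in 68.8% of neuronal cells (60.9 to 76%) and in 1 other cell (2%). The median depth was similar, with 4099418 reads in neuronal cells and 4039816 in other cells. The share in other cells is the background against which the neuronal share is read.

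The levels showed the same separation. Slc18a3 had a median of 97.9 RPKM in neuronal cells (lowest 0, highest 893), against a median of 0.339 and a highest value of 4.66 RPKM in other cells. Ache had a median of 56.7 RPKM in neuronal cells (0 to 496), against 0.112 in other cells with a highest value of 3.06. Slc5a7 had a median of 30.4 RPKM in neuronal cells (0 to 190.6), against 0.0428 in other cells with a highest value of 0.621. Chat had a median of 27.4 RPKM in neuronal cells (0 to 389), against 0 in other cells with a highest value of 8.37. The ranges of the classes overlapped for every gene, and each was at 0 in some neuronal cells: 23 for Chat, 12 for Slc5a7, 10 for Slc18a3 and 7 for Ache. Mean CPM was over 2-fold higher in neuronal than in other cells on each of the 3 plates for 4 of the 4 genes, where 16.8% of 13300 genes passed the same rule. The log2 ratio of mean CPM, with 1 CPM added, averaged 7.11 for Slc18a3, 6.98 for Ache, 6.88 for Slc5a7 and 6.14 for Chat over the plates, against a median of 0.33 over all genes.

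**Figure D1:**
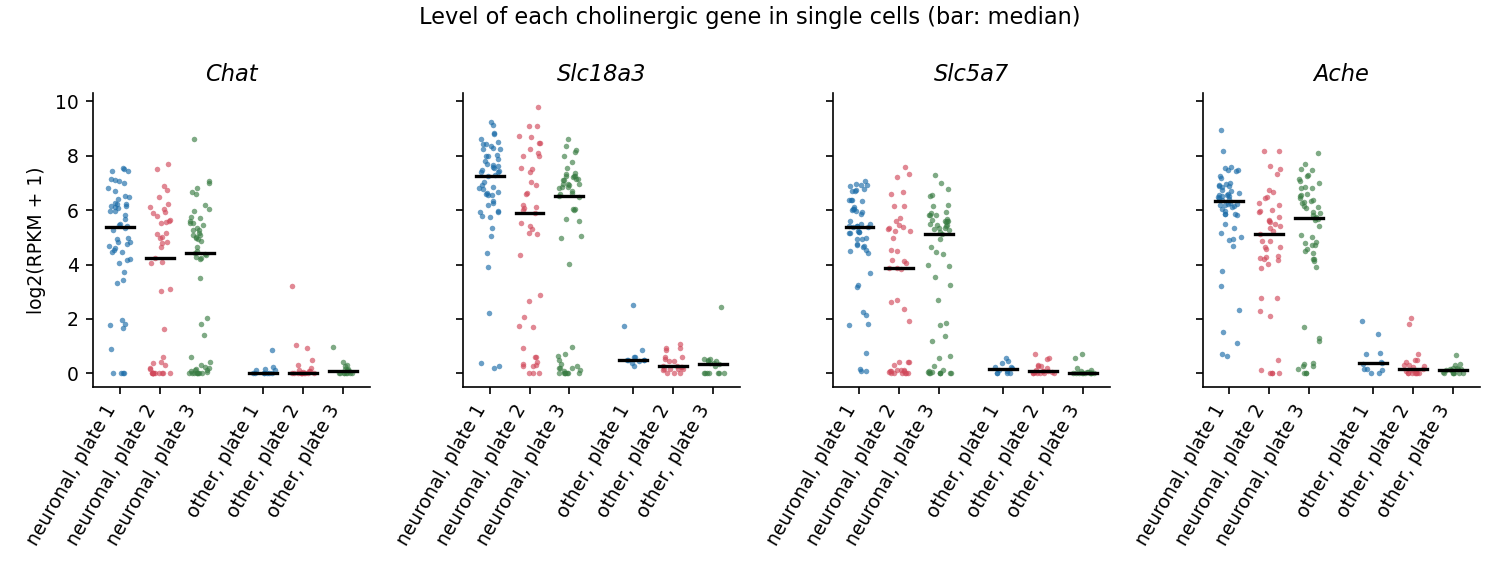
Level of Chat, Slc18a3, Slc5a7 and Ache as log2(RPKM + 1) in each cell, by neuronal status and plate, where a point is a cell and the bar is the median. Neuronal cells form a high group and a group near 0 for each gene, while other cells lie near 0, with highest values of 8.37 RPKM for Chat and 4.66 RPKM for Slc18a3.

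Few cells lay near the detection threshold. Between 10 and 20 CPM there were 7 cells for Slc5a7, 7 for Ache, 4 for Slc18a3 and 0 for Chat. For Chat, the lowest cell above the threshold had 20.2 CPM and the highest below it had 8.68 CPM. The cells nearest the threshold on either side had 10.5 and 8.77 CPM for Slc18a3, 12.4 and 8.32 CPM for Slc5a7, and 10.6 and 8.77 CPM for Ache. Cells between 5 and 10 CPM numbered 7 for Chat, 5 for Slc18a3, 2 for Slc5a7 and 5 for Ache.

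Plate 1 had the highest shares. Among its neuronal cells, Slc18a3, Slc5a7 and Ache were each detected in 50 of 54 (92.6%) and Chat in 45 of 54 (83.3%). On plate 2, Ache was detected in 86.7%, Slc18a3 in 68.9%, Slc5a7 in 62.2% and Chat in 60% of 45 neuronal cells. On plate 3, the shares were 81.8% for Ache, 70.9% for Slc5a7, 67.3% for Slc18a3 and 61.8% for Chat, of 55 neuronal cells. The share of neuronal cells with Slc17a6 moved with the plates too, at 81.5%, 44.4% and 45.5% on plates 1, 2 and 3, and its part in the difference between plates was not tested.

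Within cells the genes went together. All 4 were detected in 66.2% of neuronal cells (interval 58.2 to 73.6%) and none of them in 11 (7.14%). The product of the 4 single shares, for genes detected independently, was 34.9%. For Chat, Slc18a3 and Slc5a7, the genes of synthesis, vesicle loading and choline uptake, 104 neuronal cells had all 3 (67.5%), 30 had none (19.5%) and 20 had a part (13.0%). All or none of these 3 thus held for 87% of neuronal cells (80.7 to 91.9%), and for 90.7%, 80% and 89.1% on plates 1, 2 and 3. For these 3 genes the product of the single shares was 40.1%, and that of the shares without each gene was 1.75%. On plate 1, where each share was high, the product for all 3 was already 71.4%, against 83.3% of cells with all 3. Of 106 neuronal cells with Chat, 99.1% had Slc18a3, 99.1% had Slc5a7 and 98.1% had Ache, and no neuronal cell had Chat alone. Where Chat was not detected, Slc5a7 was found in 25% of 48 cells, Slc18a3 in 27.1% and Ache in 62.5%.

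**Figure D2:**
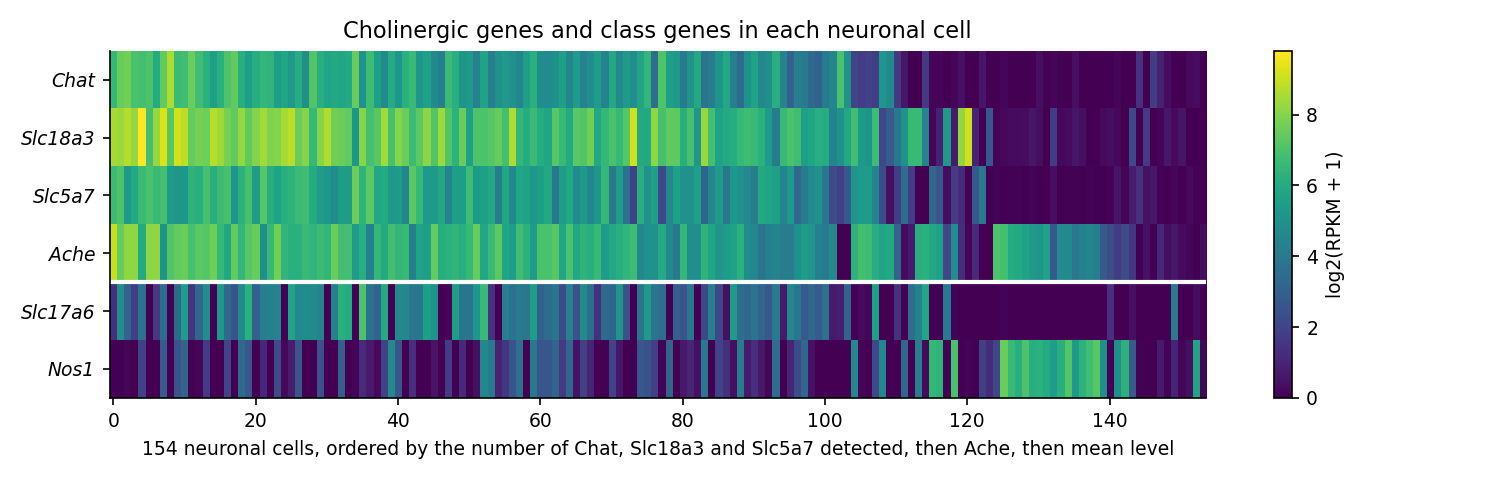
Level of the 4 cholinergic genes, Slc17a6 and Nos1 as log2(RPKM + 1) in each neuronal cell, 1 column per cell, ordered by how many of Chat, Slc18a3 and Slc5a7 were detected, then by Ache and mean level. The 104 columns at the left hold all 3 genes, and at the right Ache continues in 19 cells without them, 18 of which have Nos1.

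The 20 cells with a part of the 3 genes had a median of 1549411 reads (453052 to 12816973) against 4211462 in the 104 cells with all 3. Depth was much alike on plate 1, at medians of 3433090 and 3490484 reads. On plate 2 the medians were 684905 and 4204531, and on plate 3 they were 2331940 and 5749892. Of the 20 cells, 13 carried a non-neuronal list. The part of depth and of other RNA in these combinations was not tested. Chat was the missing gene in 7 of them that held both Slc18a3 and Slc5a7, 5 with Ache and 2 without. In the 5 with Ache, Chat lay just under the threshold, at 6.09 to 8.68 CPM, and cells 31 and 39 of plate 1, which form a near-identical pair, were among them. Slc18a3 was detected without the other 3 genes in 3 cells, at 1326 CPM in cell 44 of plate 2, 713 CPM in cell 28 of plate 3 and 12.7 CPM in cell 18 of plate 2. In the first 2 of these cells Slc18a3 was above the neuronal median of 236 CPM, while Chat was at 0 and 0.956 CPM. Slc5a7 with Ache, without Chat or Slc18a3, occurred in 3 cells, all with Nos1 at 927 to 1405 CPM.

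Among the cells with all 4 genes, Slc18a3 had the highest RPKM in 74, Ache in 14, Chat in 7 and Slc5a7 in 7. Its median there was 151.6 RPKM (15.3 to 893), followed by Ache with 76.1 (12.5 to 496), Chat with 45.2 (7.21 to 389) and Slc5a7 with 43.2 (2.82 to 190.6). Over all plates Chat was the lowest in 42 cells and Slc5a7 in 43, and the SD over cells was 1.16 and 1.15 on the log2 scale. By plate the order changed: Chat was the lowest in 17, 8 and 17 cells and Slc5a7 in 24, 10 and 9 on plates 1, 2 and 3. Whether Chat and Slc5a7 differ within cells was not tested. The order between genes depends on the division by length (2413 bases for Slc18a3, 2810 for Chat, 4623 for Ache, 5176 for Slc5a7). In CPM, the medians in the cells with all 4 genes were 365.9 for Slc18a3, 352.0 for Ache, 223.4 for Slc5a7 and 126.9 for Chat. There Chat was lowest and Slc18a3 and Ache were close, but longer true lengths would raise the CPM of Chat and Slc5a7. Which scale suits the kit was not tested.

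Correlation was higher over all neuronal cells than among cells with both genes detected, for Chat with Slc18a3 and with Slc5a7 on each plate. The Spearman correlation of Chat with Slc5a7 was 0.61, 0.85 and 0.73 on plates 1, 2 and 3 (54, 45 and 55 cells), with Slc18a3 0.62, 0.66 and 0.62, and with Ache 0.53, 0.52 and 0.36. Cells of a plate share the amplification pool, and each cell's genes share its depth. Where both genes of a pair were detected, the Spearman correlation of Chat with Slc18a3 was 0.41 on plate 1 (45 cells), 0.35 on plate 2 (26 cells) and -0.15 on plate 3 (34 cells). For Chat with Slc5a7 it was 0.45, 0.60 and 0.04 in the same cell numbers.

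**Figure D3:**
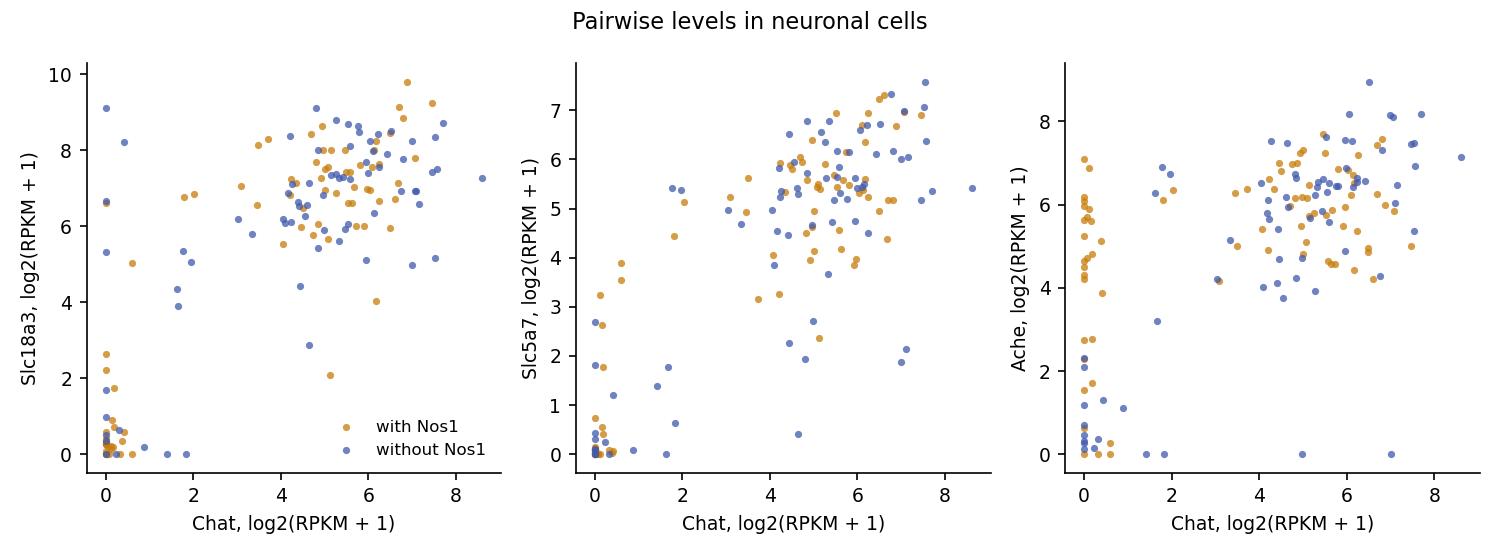
Level of Slc18a3, Slc5a7 and Ache against that of Chat in neuronal cells, each as log2(RPKM + 1), where a point is a cell, coloured by Nos1 detection at 10 CPM. Cells form a high cloud and a group near the origin for Slc18a3 and Slc5a7, while cells with Nos1 and Chat near 0 reach Ache levels as high as 135.4 RPKM.

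Neuronal cells with Slc17a6 nearly all had the cholinergic genes. Chat was detected in 83 of 89 cells with Slc17a6 (93.3%, interval 85.9 to 97.5%) and in 23 of 65 without (35.4%, 23.9 to 48.2%). Slc18a3 was detected in 98.9% of cells with Slc17a6 and in 46.2% of those without, and Slc5a7 in 95.5% and 49.2%. Ache had the narrowest gap, with 96.6% of cells with Slc17a6 and 73.8% of cells without. Within plates the same order held for Chat, which was found in 41 of 44, 17 of 20 and 25 of 25 cells with Slc17a6 on plates 1, 2 and 3, and in 4 of 10, 10 of 25 and 9 of 30 cells without. Slc18a3 was found in 43, 20 and 25 of the same cells with Slc17a6 and in 7, 11 and 12 of those without, and Slc5a7 in 43, 17 and 25 and in 7, 11 and 14. Median depth was 4033634 reads with Slc17a6 and 4386846 without. Median levels were 37.6 RPKM with and 0.340 RPKM without Slc17a6 for Chat, and 136 and 2.38 RPKM for Slc18a3. By mean CPM, 0 of the 4 genes passed 2-fold on every plate, where 1.39% of 13077 genes passed as higher and 0.826% as lower. The log2 ratio of mean CPM averaged 1.28 for Slc5a7, 1.14 for Slc18a3, 0.76 for Chat and 0.43 for Ache, against a median of 0.13 over all genes.

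Nos1 detection gave smaller differences over all neuronal cells. Chat was found in 62.5% of 80 neuronal cells with Nos1 and in 75.7% of 74 without, Slc18a3 in 67.5% and 86.5%, and Slc5a7 in 71.2% and 81.1%. Ache ran the other way, with 92.5% of cells with Nos1 (84.4 to 97.2%) and 81.1% of cells without (70.3 to 89.3%). The difference, with minus without Nos1, was -19.0 percentage points for Slc18a3 (Newcombe 95% interval -31.4 to -5.65) and -13.2 for Chat (-26.9 to 1.47). It was -9.83 for Slc5a7 (-22.8 to 3.74) and 11.4 for Ache (0.653 to 22.5). These intervals pool the cells of all plates and hold counting error only, so they give no verdict on a difference. For Ache the difference was -1.10, 1.79 and 34.3 percentage points on plates 1, 2 and 3. For Slc18a3 the widest gap lay on plate 2, with 45.8% of cells with Nos1 and 95.2% of cells without. A non-neuronal list was carried by 35% of cells with Nos1 and 50% of those without. In cells with no such list the difference was -32.3 for Chat, -31.9 for Slc18a3, -25.4 for Slc5a7 and 2.34 for Ache. With any read as detection, where all picked cells pass as neuronal, it turned to 11.95 for Chat and 2.68 for Slc5a7. Except for Slc18a3, the plates did not share a direction: Chat was found in 22 of 25 cells with and 23 of 29 cells without Nos1 on plate 1, in 10 of 24 and 17 of 21 on plate 2, and in 18 of 31 and 16 of 24 on plate 3. Slc18a3 was found in 23, 11 and 20 of the same cells with Nos1 and in 27, 20 and 17 of those without on plates 1, 2 and 3, and Ache in 23, 21 and 30 and in 27, 18 and 15. Median depth was 5047428 reads with Nos1 and 3507464 without. By mean CPM, 0 of the 4 genes passed 2-fold on every plate, where 0.581% of 13077 genes passed as higher and 0.986% as lower.

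**Figure D4:**
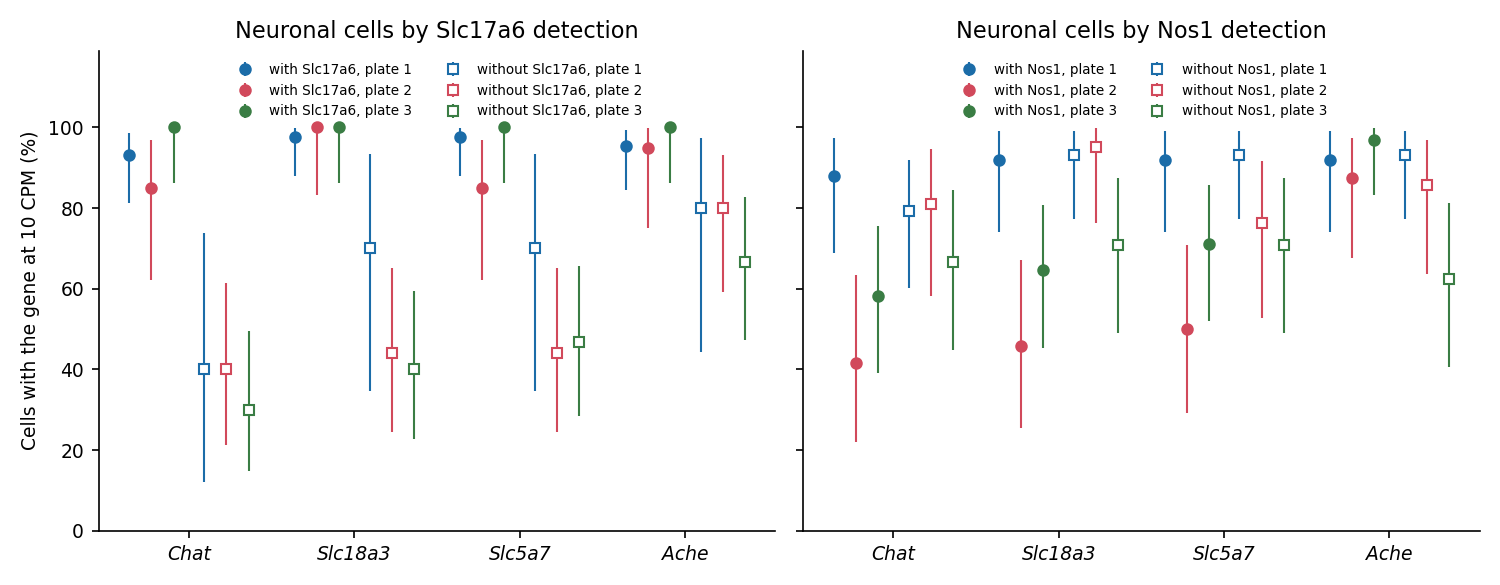
Share of neuronal cells in which each gene reached 10 CPM, with exact 95% intervals, for cells with (filled) and without (open) Slc17a6 at the left and Nos1 at the right, by plate. Chat lies between 85% and 100% with Slc17a6 and between 30% and 40% without it on the 3 plates, whereas the order of cells with and without Nos1 changes between plates for Chat, Slc5a7 and Ache.

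Splitting by both class genes separated the Nos1 cells. Of 46 cells with Slc17a6 and Nos1, 43 had Chat, 45 had Slc18a3, 44 had Slc5a7 and 45 had Ache. Of 43 cells with Slc17a6 and no Nos1, 40 had Chat, 43 had Slc18a3, 41 had Slc5a7 and 41 had Ache. Of 34 cells with Nos1 and no Slc17a6, 7 had Chat (20.6%), 9 had Slc18a3, 13 had Slc5a7 and 29 had Ache (85.3%). Of 31 cells with neither, 16 had Chat (51.6%), 21 had Slc18a3, 19 had Slc5a7 and 19 had Ache (61.3%), and 19 of these 31 carried a non-neuronal list. The Nos1 level itself differed between these classes: its median was 4.63 RPKM (0.997 to 22.7) in the 46 cells with both class genes and 48.4 RPKM (0.931 to 192.3) in the 34 cells without Slc17a6. Only 1 of those 34 cells lay on plate 1, so the comparison rests on plates 2 and 3.

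Ache without Chat, Slc18a3 and Slc5a7 was the second most frequent combination, with 19 neuronal cells, of which 18 had Nos1 and 0 had Slc17a6. Plate 1 held 1 of them, plate 2 held 9 and plate 3 held 9. They were deep, with a median of 7073015 reads, and 5 carried a non-neuronal list. Their Ache level had a median of 23.9 RPKM (2.29 to 135.4), against 74.6 RPKM (0 to 496) in the 104 cells with all of Chat, Slc18a3 and Slc5a7. Their Nos1 level had a median of 70.9 RPKM (0 to 192.3), against 0.613 RPKM (0 to 25.2) in the 104 cells. The levels overlapped for both genes. In the 1 Ache-only cell of plate 1, cell 43, Nos1 was at 0 and Ache at 3.99 RPKM. Cell 43 was also 1 of 2 neuronal cells that carried a list of extrinsic sensory neuron markers. The other was the 1 cell with Slc17a6 among the 11 cells with none of the 4 genes. The 11 cells with none of the 4 genes had a lower median of 1456730 reads, with a wide range (561098 to 8548088), and 8 of them carried a non-neuronal list.

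Further genes of acetylcholine handling were set beside the 4, first between neuronal and other cells, where 16.8% of all genes were higher and 5.58% lower. Of 15 choline supply genes, 10 had enough reads to compare, and 1 was higher: Slc44a5, a choline transporter-like gene, detected in 44.2% of neuronal and 0% of other cells. Of 8 acetyl-CoA supply genes, 7 were compared and 2 were higher: Acly, which makes cytosolic acetyl-CoA from citrate (mean 298 CPM in neuronal and 84.4 CPM in other cells), and Slc25a1, the mitochondrial citrate carrier (242 and 60.7 CPM). The genes of breakdown and anchoring beside Ache, Prima1, Colq and Bche, were each higher, Bche not with a pseudocount of 10. Prima1, the membrane anchor of acetylcholinesterase in neurons, was detected in 63.6% of neuronal and 2% of other cells. Colq, its collagen tail, was detected in 35.7% and 0%, and Bche, butyrylcholinesterase, in 23.4% and 6%. Ufsp1, a protease gene just downstream of Ache and listed as its neighbour, was higher too, at 68.8% and 14%. Of 8 vesicle proton pump subunits, which build the gradient that Slc18a3 uses, 2 were higher (Atp6v0a1 and Atp6v0d1), or 25% against 16.8% of all genes. Atp6v1b2 passed too without the highest cell of each class and plate, with log2 ratios of 2.71, 1.23 and 2.25 on plates 1, 2 and 3. Of 9 regulators, 4 were compared: Phox2a, Tbx3 and Pbx3 were higher, and Rest, a repressor of neuronal genes, was lower (47.4% of neuronal and 74% of other cells; mean 22.6 and 72.4 CPM). The call for Rest ended with a pseudocount of 10 and without the highest cell of each class and plate, where the log2 ratio on plate 3 was -0.91 and -0.86. Among the other vesicular transporters, 3 of 8 were compared and 1, Slc17a6, was higher. Slc18a1, too low to be compared, was higher with no filter on low genes.

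Between neuronal cells with all of Chat, Slc18a3 and Slc5a7 and those with none, a comparison chosen after the values were seen, plates 2 and 3 had enough cells. There 8.14% of 12829 genes were higher and 2.12% lower. Shares of cells below are over all 3 plates. The column names of plates 2 and 3 share a suffix, so agreement between these plates may not be that of separate samples. The 30 cells with none join 19 cells with Ache alone and 11 with none of the 4 genes, 8 of which carried a non-neuronal list. The list of extrinsic sensory neuron markers was carried by 2 of the 30 cells and 0 of the 104. The classes also differed in Nos1, detected in 70% of the 30 cells (median 40.2 RPKM) and in 47.1% of the 104 (0.613 RPKM). The part of Nos1, and of the mixed make-up of the 30 cells, in the gaps below was not tested. Ache, which did not define the classes, was detected in 98.1% of the 104 cells with all 3 and in 63.3% of the 30 with none, with log2 ratios of 2.07 and 1.37 on plates 2 and 3. Of the anchoring genes, Prima1 was detected in 82.7% and 16.7% (log2 ratios 3.62 and 4.75), Colq in 48.1% and 3.33% (3.31 and 5.32), and Bche in 30.8% and 6.67% (2.72 and 3.8). Ufsp1 did not pass, with log2 ratios of 1.95 and 0.31, but passed without the highest cell of each class and plate. Pbx3, a homeodomain factor, was detected in 90.4% and 10% (6.56 and 4.40). Phox2a and Tbx3, also transcription factors of autonomic neurons, were higher too, with mean log2 ratios of 1.55 and 2.00. Bmpr1b, listed with the regulators but too low to be compared, was higher with no filter on low genes. Acly averaged 349 CPM in cells with all 3 and 82.2 CPM in those with none on plate 2, and 289.8 and 118.7 CPM on plate 3. Slc25a1 did not pass, at 238 and 242 CPM on plate 2 and 218 and 256 CPM on plate 3. Slc17a6 was detected in 79.8% and 3.33%. Enpp6, a phosphodiesterase that releases choline, was lower, in 5.77% and 36.7% of cells, with log2 ratios of -1.06 and -3.67 on plates 2 and 3, and was not called with a pseudocount of 10. None of the 8 proton pump subunits passed, with a median log2 ratio of 0.27 against 0.23 over all genes. Between cells with and without Slc17a6, Bche (31.5% and 12.3% of cells) was higher and no listed gene was lower, where 1.39% and 0.826% of all genes were, apart from Slc17a6 itself being higher by construction. Bche was not called with a pseudocount of 10, Pbx3, Prima1 and Ufsp1 were higher as well without the highest cell of each class and plate, and Acss1 was lower with no filter on low genes. Between cells with and without Nos1, 0 of the listed genes passed in either direction, where 0.581% of all genes were higher and 0.986% lower.

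**Figure D5:**
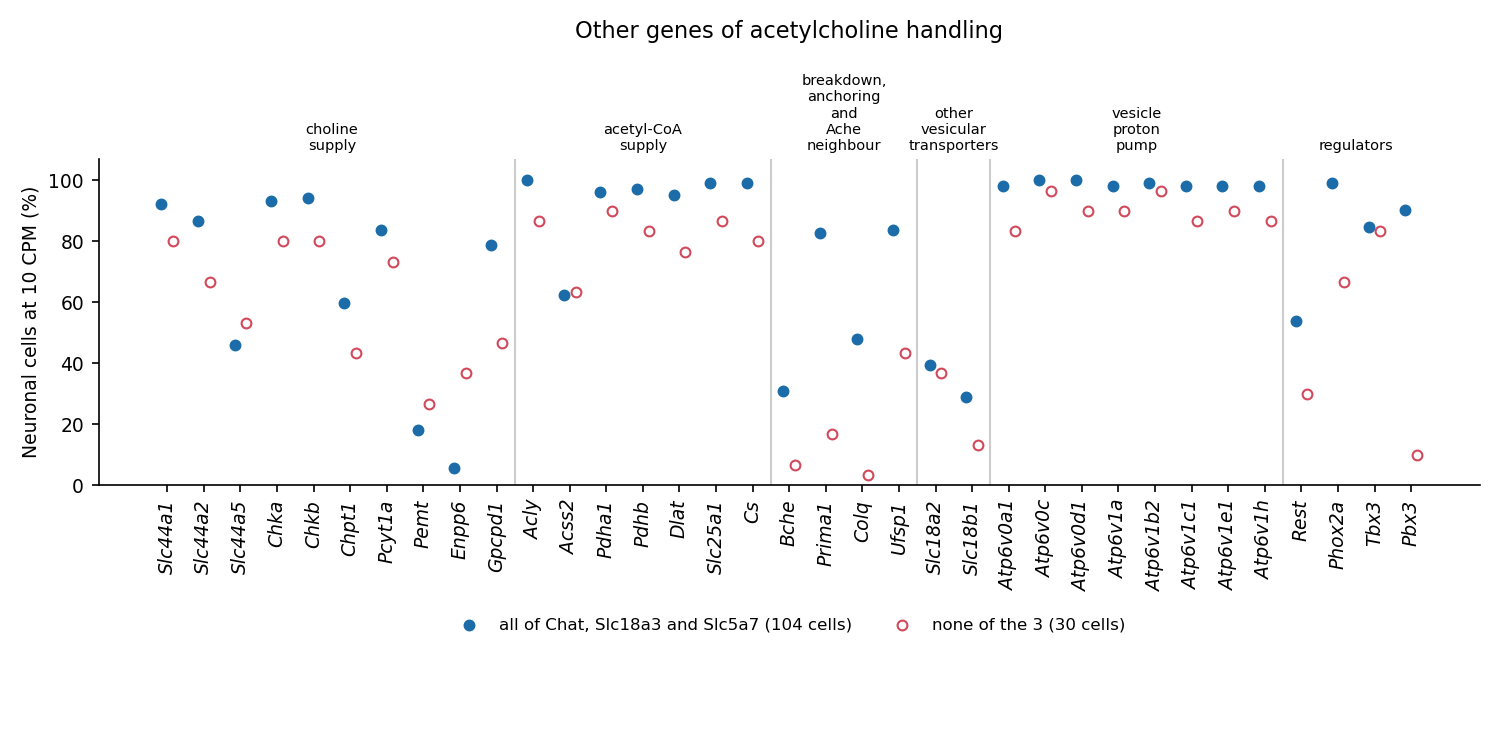
Share of neuronal cells in which each further gene of acetylcholine handling reached 10 CPM, for the 104 cells with all of Chat, Slc18a3 and Slc5a7 (filled) and the 30 cells with none of them (open), by list. Slc17a6 is not drawn. Prima1, Colq and Pbx3 show wide gaps, at 82.7% and 16.7%, 48.1% and 3.33%, and 90.4% and 10%, while the proton pump subunits lie close together.

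The patterns most like each gene were ranked by the mean within-plate Spearman correlation over the neuronal cells of each plate, among 7905 genes. For Chat, the first 5 were Slc5a7 (0.73), the alpha-2A adrenergic receptor gene Adra2a (0.66), Epb41l4a (0.65), the zinc finger gene Casz1 (0.63) and Slc18a3 (0.63). For Slc18a3 they were Chat (0.63), the kinase gene Stk32c (0.62), Slc5a7 (0.61), the synapsin gene Syn2 (0.60) and Cd24a (0.60). For Slc5a7 they were Chat (0.73), Stac (0.68), Parva (0.67), Arhgef3 (0.65) and Epb41l4a (0.65). For Ache they were the neuronal enolase gene Eno2 (0.62), the nicotinic receptor subunit gene Chrna3 (0.60), Pea15a (0.59), the lysosomal glucosidase gene Gaa (0.59) and the receptor subunit gene Ramp1 (0.59). Ache stood at rank 93 for Chat, 46 for Slc18a3 and 138 for Slc5a7, so it was less like the 3 than they were like each other. The median over all genes was 0.13 for Chat and 0.14 for Ache. Other measures of likeness kept 1 to 3 of each first 5.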

How the data were processed

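Single-cell RNA of 204 picked cells was measured with a kit without molecular identifiers, so reads were counted, and the wells of each plate were amplified as a pool, per the labels' protocols. The deposited values are log2(RPKM + 1), with 1 column per cell. The log base and offset were inferred from the numbers themselves, whereas the tests had been planned for CPM. The submitters' processing notes name mm10. No source used here gives the aligner, the counter or its strand mode. A column was tied to its cell through the cell number (plate 1) or sequencer index (plates 2 and 3) that its label holds.

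Whole reads were recovered from the deposited values as RPKM times gene length times total reads. Within a tolerance of 0.0001, 100% of 2375655 values above 0 came out whole. Exon lengths came from GENCODE M21 for 31365 genes. For 6270 genes, among them Chat (2810 bases) and Slc5a7 (5176 bases), the length taken was the smallest one giving whole reads in every cell. A longer true length would raise their CPM but not their RPKM. CPM values are these reads scaled to 1000000 per cell.

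Members and lists were chosen with earlier results of these data known. A list was carried where at least 50% of its measured members reached 10 CPM, and neuronal cells carried the pan-neuronal list. The labels name no animal or culture and cells are not replicates, so results are shares with exact 95% intervals. For a count of 0, the upper limit is 3 cells of the class. Between classes, mean CPM plus a pseudocount of 1 was compared as a log2 ratio, over genes with a mean of at least 5 CPM. A gene counted as higher or lower where the log2 ratio passed 1 in size, with the same sign, on every plate with at least 5 cells of both classes. The pseudocount understates differences of low genes. The fold comparison was tried on simulated cells of the Nos1 classes, with known changes and no difference between plates built in. Named genes were the 4 members, Slc17a6, Nos1, pathway genes detected in at least 10% of neuronal cells or defining for their list, and the 5 genes most like each member with a mean of at least 20 CPM and detection in at least 20% of neuronal cells. That ranking held no mitochondrial, ribosomal, Rik or Gm genes. Alternatives changed the threshold, depth, neuronal list, plates, length scaling, pseudocount and likeness measure. Python 3.11.15, numpy 2.4.6, pandas 2.3.3 and scipy 1.17.1 were used. 1 gene of the regulator list is not reported here.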

Additional observations from a re-analysis of the deposited data

Results flagged for a closer look

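The plates differed in direction for the share of neuronal cells with a gene, cells with Nos1 minus those without, in 3 of the 4 genes. On plates 1, 2 and 3, the difference was 8.69, -39.3 and -8.60 percentage points for Chat. It was -1.10, -26.2 and 0.134 percentage points for Slc5a7. It was -1.10, 1.79 and 34.3 percentage points for Ache. The difference between plates was not tested.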

How the results depend on the processing

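No paired analysis was possible because the groups in the labels are the plates, whose cell numbers pair no cells, and the results come from no test. Both classes of a comparison lie on the same plates, so values within plates are given. Of 284 values recomputed under alternatives, 219 stayed within the interval of the main value or within 1.5 times a main count, 59 moved outside it and 6 turned their direction. Thresholds of 5 and 20 CPM, 1% of the highest read count on the plate, thinning to 400000 reads and 75% of the pan-neuronal list changed no share or difference beyond its interval, and near-identical pairs counted once, an alternative chosen after seeing the data, changed none of these nor a pathway count. In percentage points, with minus without Slc17a6, the difference was 35.5 for Chat and 36.3 for Slc18a3 at 50 CPM, 38.0, 20.6 and 25.2 for Chat, Slc18a3 and Slc5a7 at any read, 27.7 for Slc18a3 and 27.7 for Slc5a7 on plate 1 alone, and 70.0 for Chat on plate 3 alone. With minus without Nos1, it was -32.5 for Slc18a3 and -28.1 for Slc5a7 at 50 CPM, 11.95 for Chat and 2.68 for Slc5a7 at any read (both turned), -32.3, -31.9 and -25.4 for Chat, Slc18a3 and Slc5a7 in cells with no non-neuronal list, and -34.7, -39.2 and -28.4 at 5 RPKM. By plate it was 8.69 for Chat (turned), -1.10 for Slc18a3 and -1.10 for Ache (turned) on plate 1, -39.3, -49.4 and -26.2 for Chat, Slc18a3 and Slc5a7 on plate 2, and 0.134 for Slc5a7 (turned) and 34.3 for Ache on plate 3. Leaving out a plate gave -0.204 to 19.4 for Ache (turned without plate 3). The share of neuronal cells with Chat was 83.3% on plate 1 and 60.0% on plate 2. For Slc18a3 it was 92.6%, 68.9% and 67.3% on plates 1, 2 and 3, 90.2% at any read and 68% to 81.8% with a plate left out. For Slc5a7 it was 92.6% and 62.2% on plates 1 and 2, 84.3% at any read and 67% to 81.7% with a plate left out. For Ache it was 92.6% on plate 1 and 93.3% in cells with no non-neuronal list. All 4 genes were found in 57.1% of cells at 50 CPM, 83.3% on plate 1, 53.3% on plate 2 and 57% to 71.6% with a plate left out. All or none of Chat, Slc18a3 and Slc5a7 held for 79.6% at 50 CPM, 67.6% at any read, 92.1% in cells with no non-neuronal list and 80% on plate 2. Ache was found in 82.4% of cells with none of the 3 where no non-neuronal list was carried, and in 25.0% and 81.8% on plates 1 and 2. Of pathway genes, 0 were lower in neuronal than in other cells with a pseudocount of 10 and without the highest cell of each class and plate, against 1. With against without Slc17a6, 0 were higher with a pseudocount of 10, 4 without the highest cells, and 1 was lower with no filter, against 1 and 0. With all against none of the 3 genes, 0 were lower with a pseudocount of 10, against 1. Of the first 5 genes by likeness, Pearson correlation kept 3 for Chat, 3 for Slc18a3, 2 for Slc5a7 and 1 for Ache, and all cells in place of neuronal cells kept 3, 2, 1 and 1. The cause of these changes was not tested. At the shallowest cell 10 CPM is 4.53 reads, so detection in shallow cells rests on few reads.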
